A study of Mus musculus with 12 samples.

Results

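The genes described here make and sense prostaglandins and leukotrienes, and 10 were named: Ptgs1, Ptgs2, Ptges, Ptgis, Tbxas1, Pla2g4a, Alox5, Alox5ap, Ptger2 and Ptger4. They were taken from probe sets that carry exactly 1 gene symbol, with the brightest probe set standing for a gene. By that rule 9 of the 10 were measured, each by 1 probe set, among 19938 genes in all, and Ptgs1 was not analysed here. Transcript levels came from peritoneal macrophages of female mice, on 12 Affymetrix arrays with 3 in each of 4 groups. The groups were Nfkbiz-/- cells (knockout) given lipopolysaccharide (LPS) at 1 µg/ml for 4 h, untreated Nfkbiz-/- cells, C57Bl/6 cells (wild type) given the same LPS, and untreated C57Bl/6 cells. Nfkbiz encodes IκBζ, a nuclear protein of the IκB family that LPS induces, and the series compares macrophages with and without it. The labels give no sort of the cells, no age, no background strain for the knockout beyond a shared protocol, and no statement that replicates came from separate mice. The p-values therefore measure the spread between these arrays, which may be technical.

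Prostaglandins and leukotrienes are lipid signals made from arachidonic acid, which phospholipase A2 cuts from membranes. Cyclooxygenases turn it into prostaglandin H2, the common substrate of the enzymes that finish prostaglandin E2, prostacyclin and thromboxane, while 5-lipoxygenase and its partner protein start the leukotrienes. Macrophages given LPS are known for inducing cyclooxygenase-2 and releasing prostaglandin E2, which acts back on them through the receptors EP2 and EP4.

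All values are intensities on the authors' linear scale, and all differences are log2 differences with the standard error (SE) of a limma fit over the 12 arrays. A gene was called at a Benjamini-Hochberg adjusted p under 0.05 over the 19938 genes. The intensity of 1 probe set cannot be set against that of another, so levels are compared only within a gene. Where all arrays of a group are said to lie above or below all arrays of another, this describes the values. The share of all genes that separate so was not counted.

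The promoters of Ptgs2 and Ptges, the members that LPS raised most, and of Ptger2, the member called between the genotypes with LPS, are shown first. They come from RefSeq's GRCm38.p6 table, which held a promoter for 8 of the 10 named genes, Ptgis and Alox5ap being named only. Each line gives the 250 bases before the first listed start site, 5′ to 3′ on the gene's strand. Capitals mark matches on either strand to the C/EBP core TTNNGNAA.
Ptgs2, chr1:150099781-150100030, plus strand: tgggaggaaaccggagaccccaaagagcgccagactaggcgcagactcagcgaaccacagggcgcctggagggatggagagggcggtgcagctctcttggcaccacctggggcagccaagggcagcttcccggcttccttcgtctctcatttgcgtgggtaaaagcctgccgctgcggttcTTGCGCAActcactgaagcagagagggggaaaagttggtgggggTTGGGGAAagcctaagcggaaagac
Ptges, chr2:30903298-30903547, minus strand: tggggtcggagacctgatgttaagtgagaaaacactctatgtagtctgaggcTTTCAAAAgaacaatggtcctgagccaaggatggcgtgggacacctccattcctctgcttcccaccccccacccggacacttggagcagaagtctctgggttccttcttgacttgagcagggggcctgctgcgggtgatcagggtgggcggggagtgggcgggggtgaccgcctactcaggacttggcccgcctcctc
Ptger2, chr14:44987861-44988110, plus strand: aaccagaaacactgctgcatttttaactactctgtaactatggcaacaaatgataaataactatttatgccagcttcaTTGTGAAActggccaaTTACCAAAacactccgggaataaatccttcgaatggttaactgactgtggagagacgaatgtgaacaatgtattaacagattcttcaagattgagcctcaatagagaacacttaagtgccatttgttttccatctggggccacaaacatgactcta

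The C/EBP core was found in 4 of the 8 members with a promoter, Pla2g4a being the fourth, and in 40.7% of all 32851 promoters of the same length (300 bases, 50 of them after the start). Ptgs2 holds it as TTGCGCAA at 69 to 62 bases before the start and as TTGGGGAA at 25 to 18 bases before it. The NF-κB consensus, in 4.51% of promoters, and the cyclic AMP response element TGACGTCA, in 1.79%, were in 0 of the 8. The E-box CACGTG, in 7.15% of promoters, was in 1 member, Ptgs2, after its listed start. Windows and positions depend on the listed starts, and whether these cells use them was not tested. The TATA box TATAAA, in 13.6%, was in 2 members, Tbxas1 and Pla2g4a. These are matches of letters in a short window, and none of them shows binding. A member was counted if any of its listed promoters held a match, while the shares count each promoter, and Pla2g4a had more than 1.

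The arrays were checked first. Nfkbiz read 1568, 1335 and 1634 in knockout cells with LPS, against 3371, 3786 and 3079 in wild-type cells with LPS (difference -1.17, SE 0.10, limma adjusted p = 7.23e-05). Untreated it read 266.9, 285.6 and 274.4 in knockout cells, against 462.6, 430.7 and 406.3 in wild-type cells (-0.65, SE 0.10, limma adjusted p = 0.0401). That call was kept in 4 of 12 fits with an array left out. It was also lost with median centring (limma adjusted p = 0.0548), an offset before log2 (0.0539), a replicate block (0.0614) or only the arrays compared (0.0781). The sources used here do not say whether the Nfkbiz probes fall inside the deletion, so the signal left does not measure intact transcript. Of 10 macrophage markers 9 were measured, and 8 of them lay above the median gene intensity of 140.8 on every array. Both knockout arrays numbered 2 deviated most within their groups. Their root-mean-square deviation from the group mean was 0.227 with LPS and 0.194 untreated. The knockout arrays numbered 3 were at 0.173 and 0.17, and wild-type LPS array 3 was at 0.184. Both knockout arrays numbered 2 had the lowest summed B cell, mast cell and dendritic cell markers among knockout arrays of their treatment. The summed intensity of 6 measured B cell markers was 702.4 on that knockout LPS array and 1101 and 1159 on the other two, and 874.8 on that untreated knockout array and 1478 and 1345 on the other two. Where leaving them out changed a member's call, the value without them is given.

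LPS called 8 of the 9 measured genes in knockout cells and all 9 in wild-type cells, in opposite directions along the pathway. Pla2g4a, Ptgs2 and Ptges, the steps from membrane lipid to prostaglandin E2, rose in both genotypes. The genes for the prostacyclin, thromboxane and leukotriene steps (Ptgis, Tbxas1, Alox5 and Alox5ap) and for the receptor EP4 fell in both, and Ptger2 rose in wild-type cells and was not called in knockout cells. The test of that last contrast between the genotypes is given at the end of the members' results. By count, 3 rose and 5 fell in knockout cells, where 21.9% of all genes rose and 23.8% fell. In wild-type cells 4 rose and 5 fell, where 9.53% of all genes rose and 18.5% fell. The median log2 difference of the 9 was -0.81 in knockout and -0.69 in wild-type cells, beside 0.07 and 0.04 over all genes. Scaling each array on its 75th percentile put the median over all genes at 0.35 in knockout and 0.23 in wild-type cells, and the directions of the members' calls were the same under it. The split of all genes moved: 12003 were higher and 2967 lower in knockout cells under that scaling, against 4365 and 4740 as deposited, and 8648 higher and 2510 lower in wild-type cells, against 1900 and 3694 as deposited. Quantile normalization gave 2790 higher and 3049 lower in wild-type cells, and median centring 3058 and 3332.

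**Figure D1:**
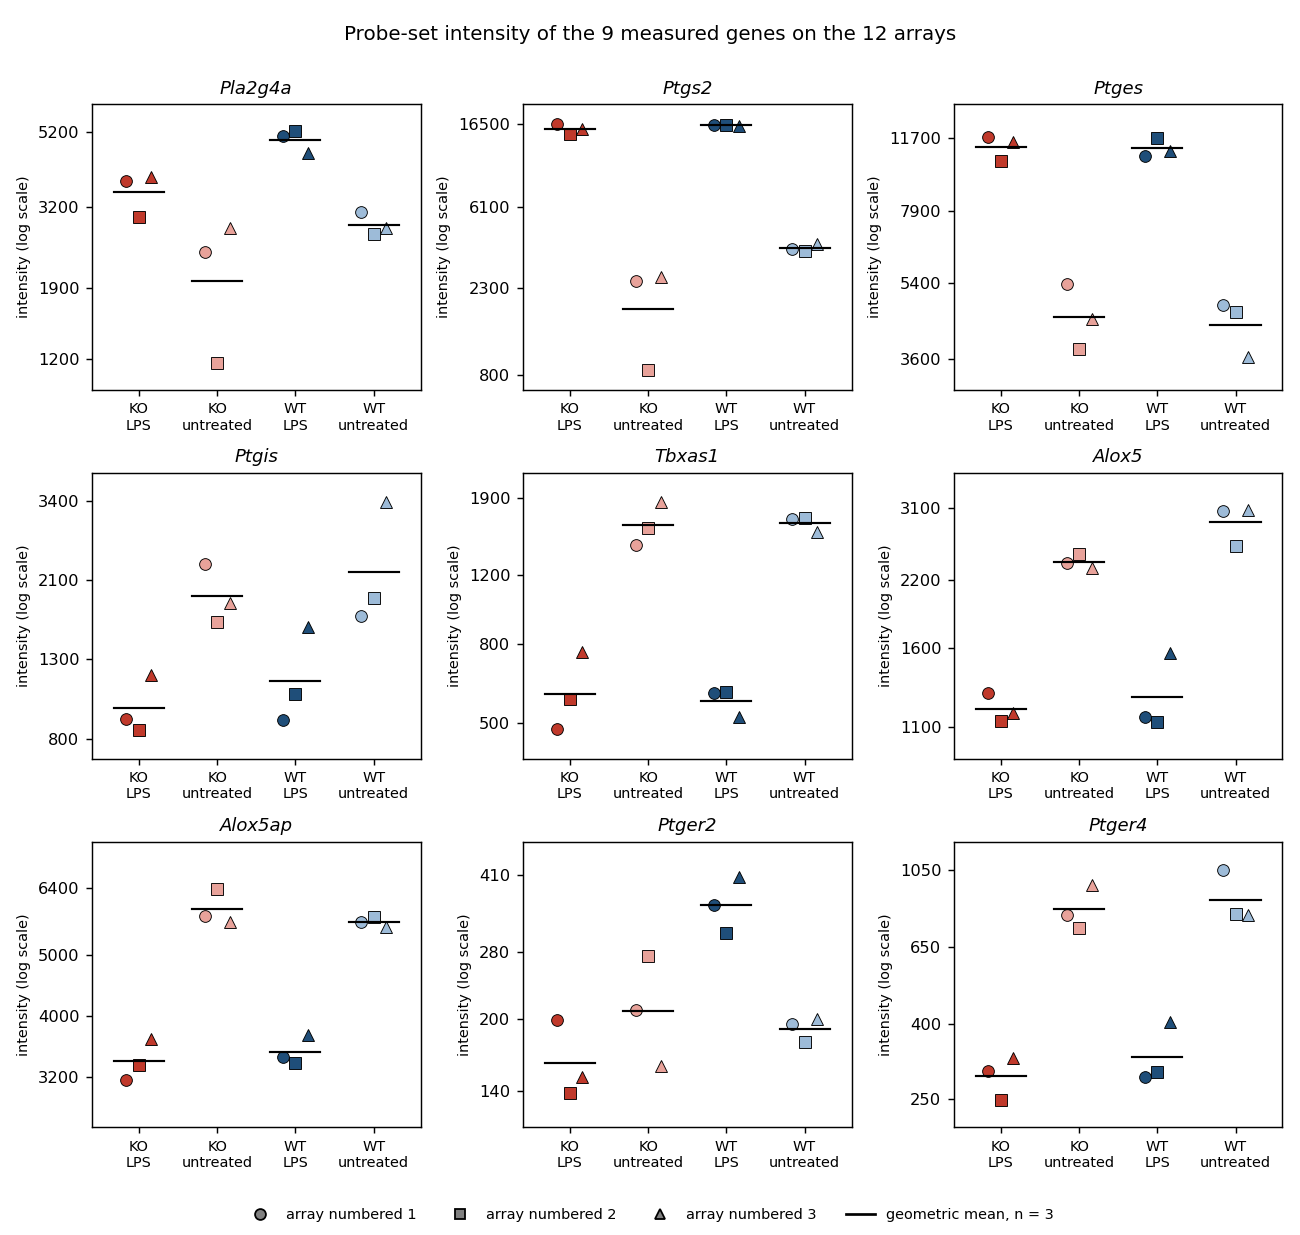
Probe-set intensity (vertical axes, log scale) of the 9 measured genes on each of the 12 arrays, in the groups knockout (KO) with LPS, knockout untreated, wild type (WT) with LPS and wild type untreated. Points are single arrays, with a shape for each replicate number, and bars are geometric means with n = 3. Pla2g4a, Ptgs2 and Ptges sit higher with LPS, 5 other genes sit lower with LPS in both genotypes, and Ptger2 is high in wild-type cells with LPS.

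Pla2g4a encodes cytosolic phospholipase A2, which releases arachidonic acid. In knockout cells it read 3774, 2995 and 3877 with LPS, against 2383, 1168 and 2789 untreated. In wild-type cells it read 5055, 5208 and 4529 with LPS, against 3097, 2682 and 2791 untreated. The arrays with LPS were higher than all untreated arrays of their genotype. The log2 difference was 0.83 in knockout cells (SE 0.25, limma adjusted p = 0.0179) and 0.79 in wild-type cells (SE 0.25, limma adjusted p = 0.0340). These calls moved with single arrays. Knockout cells lost theirs without LPS array 1 (adjusted p = 0.0513) or LPS array 3 (0.0557), and their difference was 0.45, still called, without untreated array 2. Wild-type cells lost theirs whenever 1 of their own 6 arrays was left out, with adjusted p up to 0.0966.

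Ptgs2 encodes cyclooxygenase-2, the inducible enzyme that commits arachidonic acid to prostaglandins. It read 16520, 14640 and 15520 in knockout cells with LPS, against 2480, 849 and 2625 in untreated knockout cells. On wild-type arrays it read 16400, 16440 and 16150 with LPS, against 3681, 3565 and 3906 untreated. The genotypes overlapped with LPS, close to the top of the arrays' range (highest value 22642), while the untreated knockout arrays lay below every untreated wild-type array. The log2 difference was 3.14 in knockout cells (SE 0.32, 8.79-fold, limma adjusted p = 1.43e-05) and 2.14 in wild-type cells (SE 0.32, 4.40-fold, limma adjusted p = 3.52e-04). Without untreated knockout array 2, which lay far below the other two, the knockout difference was 2.61 and still called. Whether signals near the top of the range understate these folds was not tested.

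Ptges encodes microsomal prostaglandin E synthase-1, which acts after cyclooxygenase-2 to make prostaglandin E2. It read 11730, 10300 and 11420 in knockout cells with LPS, against 5378, 3807 and 4456 untreated, and 10620, 11670 and 10870 in wild-type cells with LPS, against 4808, 4635 and 3640 untreated. The genotypes overlapped in both treatments. LPS raised it by 1.31 in knockout cells (SE 0.13, limma adjusted p = 1.34e-05) and by 1.35 in wild-type cells (SE 0.13, limma adjusted p = 1.62e-05). The difference between these responses was -0.04, with a 95% interval of -0.45 to 0.36.

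Ptgis encodes prostacyclin synthase. It read 906.7, 845.2 and 1183 in knockout cells with LPS, against 2320, 1631 and 1831 untreated. Wild-type arrays read 898.9, 1051 and 1578 with LPS, against 1696, 1884 and 3392 untreated, so array 3 was the highest in both wild-type groups. LPS lowered it in both genotypes, with differences of -0.98 in knockout cells (SE 0.27, limma adjusted p = 0.0116) and -0.95 in wild-type cells (SE 0.27, limma adjusted p = 0.0193). The wild-type call was lost without LPS array 1 (adjusted p = 0.0859), LPS array 2 (0.0643) or untreated array 3 (0.0749).

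Tbxas1 encodes thromboxane A synthase. It read 480.4, 575.3 and 759.8 in knockout cells with LPS, against 1441, 1593 and 1854 untreated. Wild-type arrays read 596.2, 598.7 and 516.4 with LPS, against 1681, 1689 and 1554 untreated. LPS lowered it well beyond the spread of the arrays, by a difference of -1.45 in knockout cells (SE 0.15, limma adjusted p = 1.48e-05) and -1.53 in wild-type cells (SE 0.15, limma adjusted p = 1.55e-05).

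Alox5 encodes 5-lipoxygenase and Alox5ap encodes FLAP, the membrane protein that presents arachidonic acid to it. Alox5 read 1293, 1129 and 1174 in knockout cells with LPS, against 2391, 2492 and 2327 untreated, and 1152, 1126 and 1562 in wild-type cells with LPS, against 3059, 2587 and 3069 untreated. Alox5ap read 3159, 3341 and 3676 in knockout cells with LPS, against 5786, 6381 and 5657 untreated, and 3446, 3361 and 3725 in wild-type cells with LPS, against 5661, 5765 and 5550 untreated. Both fell in both genotypes with no overlap of treated and untreated arrays. The Alox5 difference was -1.01 in knockout cells (SE 0.12, limma adjusted p = 4.93e-05) and -1.19 in wild-type cells (SE 0.12, limma adjusted p = 2.19e-05). For Alox5ap it was -0.81 in knockout cells (SE 0.08, limma adjusted p = 9.76e-06) and -0.69 in wild-type cells (SE 0.08, limma adjusted p = 4.77e-05). Neutrophils are rich in both proteins. Of 8 neutrophil markers, all measured, 1 fell with LPS in both genotypes, Mmp8, at 2268 to 2914 with LPS against 4121 to 5128 untreated in knockout cells, and 3033 to 3979 with LPS against 5458 to 7084 untreated in wild-type cells. Mmp8 made up most of the summed intensity, which was 3018 to 3809 with LPS against 4786 to 5776 untreated in knockout cells, and 3828 to 4762 with LPS against 6229 to 7696 untreated in wild-type cells. The other 7 had positive differences, S100a9, Camp and Ltf being called higher in knockout and Camp in wild-type cells, and 5 of the 8 lay below the median gene intensity on every array. The part of these markers in the result was not tested. In a bulk sample, fewer cells of a type and less RNA per cell cannot be told apart.

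Ptger4 encodes EP4, a receptor for prostaglandin E2 that raises cyclic AMP. It read 297.9, 249.8 and 324.4 in knockout cells with LPS, against 790.7, 732.7 and 954.3 untreated. In wild-type cells it read 288.3, 297 and 406.7 with LPS, against 1052, 798.9 and 791.5 untreated. Treated and untreated arrays did not overlap in either genotype, with a difference of -1.51 in knockout cells (SE 0.16, limma adjusted p = 2.23e-05) and -1.42 in wild-type cells (SE 0.16, limma adjusted p = 5.44e-05). The 95% interval of the difference between these responses was -0.59 to 0.42.

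Ptger2 encodes EP2, the other prostaglandin E2 receptor on the list that raises cyclic AMP. It read 199.3, 138.9 and 150.4 in knockout cells with LPS, against 209.4, 273.6 and 158.6 untreated. In wild-type cells it read 353.7, 306.7 and 406.7 with LPS, against 195.1, 178.5 and 200 untreated. All 3 wild-type arrays with LPS lay above the 9 others, and the knockout arrays with and without LPS overlapped. LPS raised Ptger2 in wild-type cells, with a difference of 0.89 (SE 0.19, limma adjusted p = 0.00378). In knockout cells the difference was -0.38 (SE 0.19, limma adjusted p = 0.120) and was not called, though it was without LPS array 1 (-0.53, adjusted p = 0.0471) or untreated array 3 (-0.57, adjusted p = 0.0229).

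**Figure D2:**
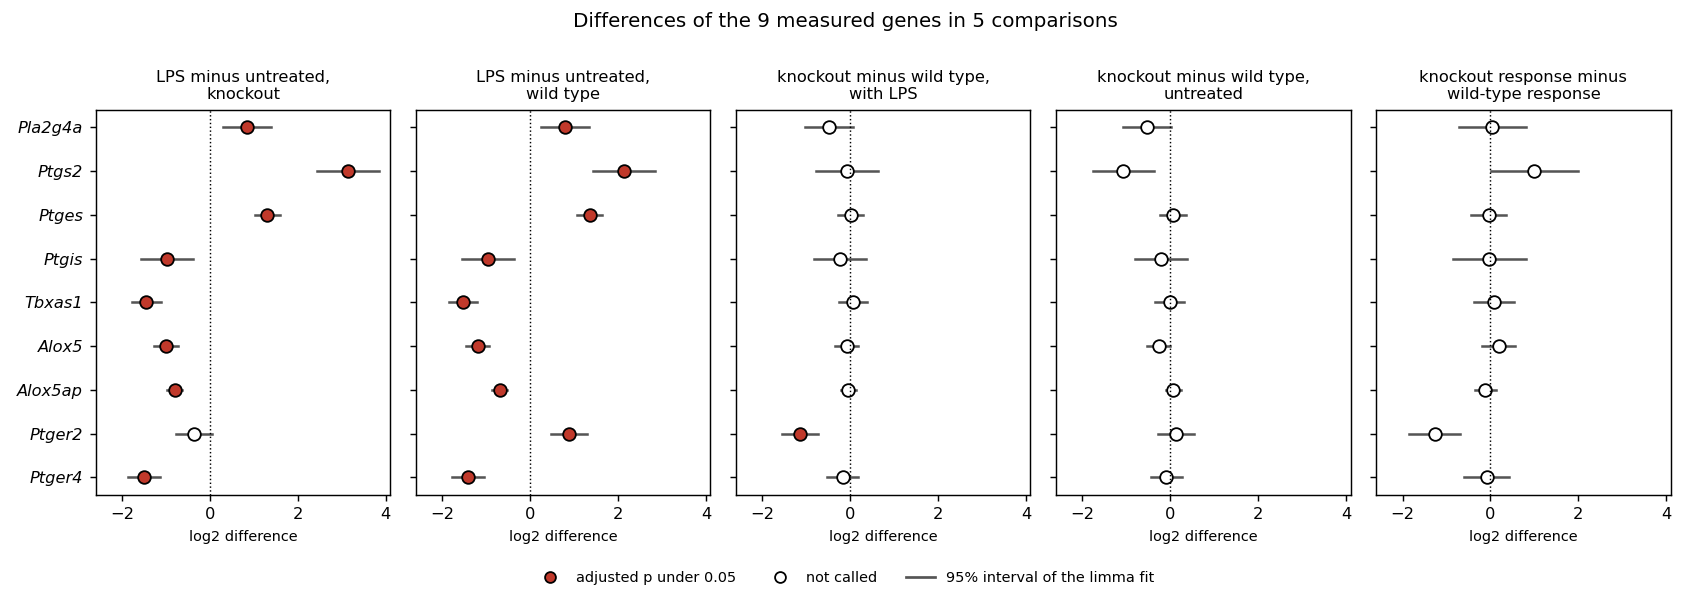
Log2 differences (horizontal axes) of the 9 measured genes in 5 comparisons: LPS minus untreated in knockout and in wild-type cells, knockout minus wild type with LPS and untreated, and knockout response minus wild-type response. Filled points were called at an adjusted p under 0.05, open points were not, and lines are 95% intervals from the limma fit. With LPS, 1 gene was called between genotypes, Ptger2 at -1.14.

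The genotypes were compared next within each treatment, which asks how the cells differed without IκBζ. With LPS 1 of the 9 genes was called, Ptger2, which was lower in knockout cells, and 0 were higher, where 4.87% of all genes were lower and 3.28% higher. Its difference was -1.14 (SE 0.19, limma adjusted p = 0.00443), so that the knockout signal was lower by 2.20-fold, and the call held whichever of the 12 arrays was dropped, the highest adjusted p being 0.0226. Of 6 dendritic cell markers, all measured, 0 were called in this comparison, and their summed intensity was 1059 to 3201 in knockout against 3566 to 5169 in wild-type cells. The largest part of that sum was Ccr7, at 494.9 to 2580 in knockout against 2944 to 4202 in wild-type cells (-1.42, limma adjusted p = 0.113), and Cd209a differed by -0.90 (limma adjusted p = 0.491). Differences of the remaining markers, Flt3, Zbtb46, Clec9a and Xcr1, lay between -0.09 and 0.05. Of 9 measured macrophage markers, 1 was called lower and 0 higher in knockout cells with LPS, Adgre1 (-0.35, limma adjusted p = 0.0245). Gata6 differed by -0.79 (limma adjusted p = 0.0610), and the others by -0.23 for Itgam to 0.59 for Cd5l. The part of the dendritic cell and macrophage markers in the result was not tested. The Ptger2 call also held under every other alternative run. The median difference of the 9 genes was -0.08, beside -0.01 over all genes, of which 653 were higher and 970 lower as deposited, and 926 and 719 on the 75th percentile.

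Ptgs2 and Ptges, with levels as given above, were not called between genotypes with LPS. The Ptgs2 difference was -0.07, with a 95% interval of -0.77 to 0.63 (limma adjusted p = 0.940), and the Ptges difference was 0.01, with an interval of -0.28 to 0.30 (limma adjusted p = 0.979). Pla2g4a was lower on all 3 knockout arrays with LPS than on any wild-type array with LPS. Its difference of -0.48 (SE 0.25, limma adjusted p = 0.301) was not called, except in the fit without untreated knockout array 2, where the same difference had an adjusted p of 0.0278. The 5 remaining genes (Ptgis, Tbxas1, Alox5, Alox5ap and Ptger4) overlapped between genotypes, with differences of -0.24 to 0.06.

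In untreated cells limma called 0 of the 9 genes, where 0.0351% of all genes were higher and 0.0401% lower in knockout cells. An unadjusted p under 0.05 was found for 2 of the 9, beside 1731 of all 19938 genes. The 2 were Ptgs2 and Alox5, both lower on every untreated knockout array than on any untreated wild-type array. How many of all genes separate in this way was not counted. The Ptgs2 difference was -1.07 (SE 0.32, limma adjusted p = 0.362), with untreated knockout array 2 the lowest at 849. Without that array the difference was -0.54 and was called (limma adjusted p = 0.0393), and without both knockout arrays numbered 2 it was again -0.54 (limma adjusted p = 0.0122). The Alox5 difference was -0.27 (SE 0.12, limma adjusted p = 0.570). The median difference of the 9 genes was -0.09, beside -0.03 over all genes.

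The last comparison tested whether the response to LPS differed between genotypes. None of the 9 genes was called by limma, where 0.301% of all genes had a more positive and 0.446% a more negative response in knockout cells. An unadjusted p under 0.05 was found for 2 of the 9, beside 2610 of all 19938 genes. Ptger2 had the smallest adjusted p among the members, with a difference of responses of -1.26 (SE 0.27, limma adjusted p = 0.0604). Dropping 1 array made it a call in 3 of 12 cases: without knockout LPS array 1 (-1.42, adjusted p = 0.0349), untreated knockout array 3 (-1.46, 0.0293) or wild-type LPS array 2 (-1.36, 0.0369). For Ptgs2 the difference of responses was 1.00, with a 95% interval of 0.01 to 1.99 (limma adjusted p = 0.376), and it was 0.47 without untreated knockout array 2. The other 7 differences of responses lay between -0.12 and 0.19. The median over all 9 was -0.02, beside 0.02 over all genes. For all genes the split was 60 more positive and 89 more negative as deposited, and 123 and 85 on the 75th percentile.

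**Figure D3:**
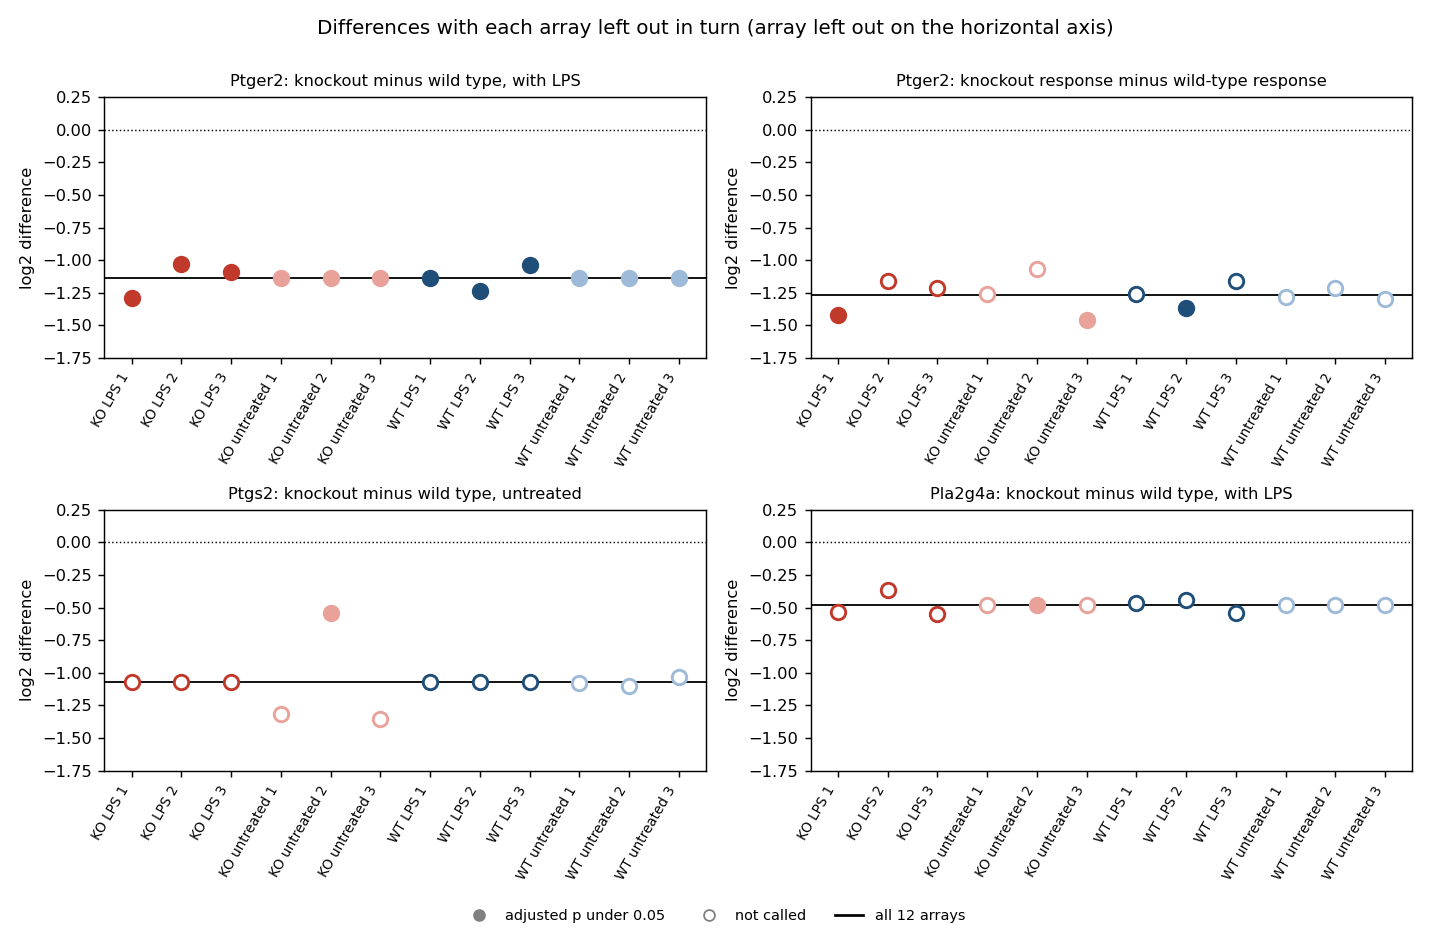
Log2 differences (vertical axes) of 3 genes in 4 comparisons when each of the 12 arrays is left out in turn (horizontal axes), with the value over all 12 arrays as a line and 0 as a dotted line. Filled points were called at an adjusted p under 0.05. Ptger2 with LPS was called in 12 of 12 fits and its difference of responses in 3 of 12, while untreated Ptgs2 moved to -0.54 without untreated knockout array 2.

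Genes of the same pathway that are not members were taken from 4 lists: other phospholipases A2, other synthesis enzymes, breakdown and transport, and other receptors. Of their 49 genes 45 were measured. With LPS 11 rose and 13 fell in knockout cells, and 2 rose and 8 fell in wild-type cells. These counts stand beside 21.9% higher and 23.8% lower over all genes in knockout cells, and 9.53% higher and 18.5% lower in wild-type cells, and are near those shares or below them. Scaling on the 75th percentile turned these counts to 25 higher and 6 lower in knockout cells, and to 19 higher and 7 lower in wild-type cells, while median centring gave 6 higher and 7 lower in wild-type cells. The counts over all genes under these scalings, given with the members' LPS results, moved the same way. The median difference was 0.08 in knockout and 0.02 in wild-type cells. Among 12 synthesis enzymes 2 rose and 7 fell in knockout cells, and 1 rose and 4 fell in wild-type cells.

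The largest of these differences were decreases in both genotypes. Pla2g15, a lysosomal phospholipase A2, read 428.7, 265.8 and 475.7 in knockout cells with LPS, against 3003, 2213 and 3219 untreated, and 384.5, 350.9 and 503.4 in wild-type cells with LPS, against 2794, 2941 and 3217 untreated. Its difference was -2.87 in each genotype (SE 0.21, limma adjusted p = 1.59e-06 in knockout and 2.39e-06 in wild-type cells). Ptgr2, a reductase that breaks down prostaglandins, fell by 1.57 on the log2 scale in knockout cells (limma adjusted p = 1.11e-05) and by 1.38 in wild-type cells (limma adjusted p = 4.38e-05). Lta4h, the enzyme that makes leukotriene B4, fell by 1.23 in knockout cells (limma adjusted p = 6.41e-05) and by 1.16 in wild-type cells (limma adjusted p = 1.52e-04), the same direction as Alox5 and Alox5ap.

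Cysltr1, a receptor for cysteinyl leukotrienes, read 816.5, 812.1 and 826.1 in knockout cells with LPS, against 2048, 1481 and 2733 untreated. Wild-type arrays read 431.1, 674.9 and 391.9 with LPS, against 2669, 2136 and 2421 untreated. It fell by 1.31 on the log2 scale in knockout cells (limma adjusted p = 5.68e-04) and by 2.31 in wild-type cells (limma adjusted p = 1.46e-05). Every knockout array with LPS was above every wild-type array with LPS, but the difference of 0.75 was not called (SE 0.22, limma adjusted p = 0.0594), nor was the difference of responses of 1.00 (limma adjusted p = 0.183). The first was called without untreated knockout array 2 (adjusted p = 0.0320), untreated knockout array 3 (0.0369) or wild-type LPS array 2 (0.99, 0.0106). It was also called on the 75th percentile (0.83, 0.0408) and with array weights (0.88, 0.00498). The second was called without wild-type LPS array 2 (1.24, 0.0466) and with array weights (1.04, 0.0436).

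**Figure D4:**
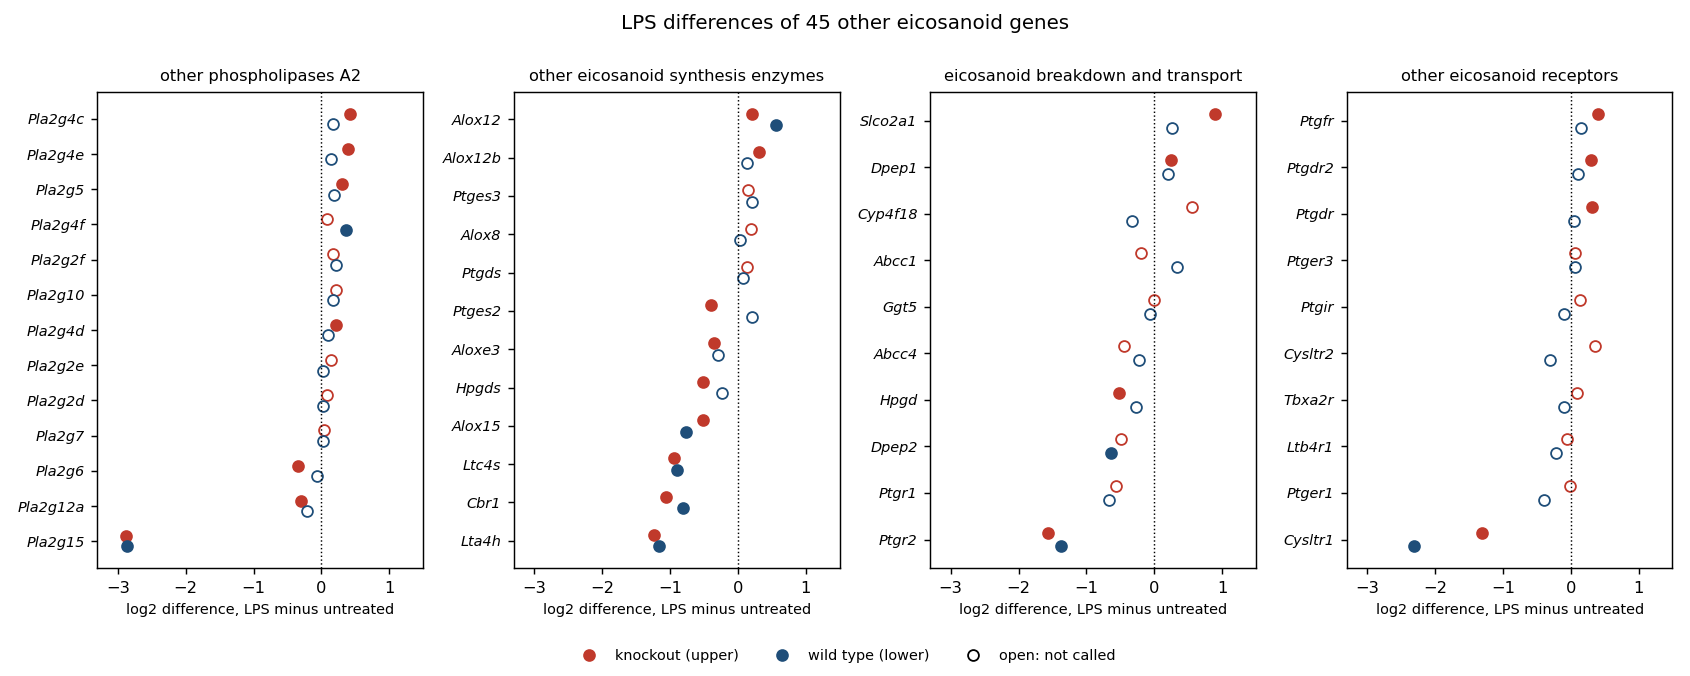
Log2 differences of LPS minus untreated (horizontal axes) for the 45 measured genes of 4 other eicosanoid lists, with knockout above wild type for each gene. Filled points were called at an adjusted p under 0.05. Pla2g15 at -2.87 is the lowest in both genotypes, and Cysltr1 fell by 1.31 in knockout and 2.31 in wild-type cells.

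Between the genotypes with LPS, 2 of these 45 genes were higher and 3 lower in knockout cells, near the 3.28% and 4.87% of all genes. On the 75th percentile they were 5 and 1. In untreated cells and in the difference of responses limma called 0 of the 45. At an unadjusted p under 0.05 were 5 untreated and 6 for the difference of responses, beside 1731 and 2610 of all 19938 genes. Slco2a1, which encodes a prostaglandin transporter, read 242, 156.5 and 306.9 in knockout cells with LPS, against 99.26, 105.6 and 99.84 in wild-type cells with LPS (1.16, SE 0.21, limma adjusted p = 0.00666). Untreated it read 115.3, 102.7 and 152.6 in knockout cells, against 93, 83.74 and 78.09 in wild-type cells. Within each treatment the mast cell markers Cpa3, Mcpt4, Cma1, Tpsb2, Kit and Fcer1a followed the order of Slco2a1 over the knockout arrays. Ms4a2 did not in either treatment, Tpsab1 did not untreated, and Hdc did not with LPS. Cpa3 read 286.6, 84.77 and 512.8 in knockout cells with LPS, against 98.64, 176.7 and 139.9 in wild-type cells with LPS. Untreated, Cpa3 read 313.8, 178.9 and 674.2 in knockout cells, against 154.3, 189.2 and 131.6 in wild-type cells. On knockout LPS array 2, Cpa3 was lower and Slco2a1 higher than on any wild-type array, which is 1 array and no test. Of 9 mast cell markers, all measured, 0 were called between genotypes. With LPS their summed intensity was 2142 to 7980 in knockout against 7699 to 8998 in wild-type cells. Most of it came from Hdc, a gene that is called for LPS in both genotypes. Hdc differed by -1.12 between genotypes with LPS (limma adjusted p = 0.175). Every other marker had a positive difference there, from 0.04 for Ms4a2 to 1.43 for Mcpt4 (limma adjusted p = 0.237 for Mcpt4). The part of the mast cell markers in the result was not tested.

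Cysltr2, the other cysteinyl leukotriene receptor, was dim, at 39.91, 53.35 and 48.66 in knockout cells with LPS, against 25.33, 32.05 and 23.15 in wild-type cells with LPS. Its difference was 0.82 (SE 0.16, limma adjusted p = 0.0112), and the call was lost without wild-type LPS array 1 (adjusted p = 0.0501) or array 3 (0.0537). Alox12, which encodes 12-lipoxygenase, read 66.54, 66.82 and 67 in knockout cells with LPS, against 98.39, 91.41 and 97.15 in wild-type cells with LPS (-0.52, SE 0.07, limma adjusted p = 0.00159). These groups were far apart for their spread, at a low intensity, and Alox12 was called whichever of the 12 arrays was dropped.

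Abcc1, an exporter of leukotriene C4, read 3302, 4138 and 2955 in knockout cells with LPS, against 5177, 4745 and 5339 in wild-type cells with LPS (-0.57, SE 0.13, limma adjusted p = 0.0258). Its call was lost without LPS array 1 or 3 of either genotype, at adjusted p up to 0.101. Ptges2, another prostaglandin E synthase, completes the 5 and was named after its value was seen. It read 183.3, 182 and 157.9 in knockout cells with LPS, against 233.8, 231.5 and 241.3 in wild-type cells with LPS (-0.44, SE 0.09, limma adjusted p = 0.0134), and the call was lost without wild-type LPS array 3 (-0.42, adjusted p = 0.0568). Ptges2 thus did not overlap between genotypes with LPS, while Ptges did. A fit of only the arrays compared ended the calls of Slco2a1 (adjusted p = 0.0521), Abcc1 (0.0785) and Ptges2 (0.0506), and scaling on the 75th percentile those of Abcc1 (0.0632) and Ptges2 (0.0509).

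**Figure D5:**
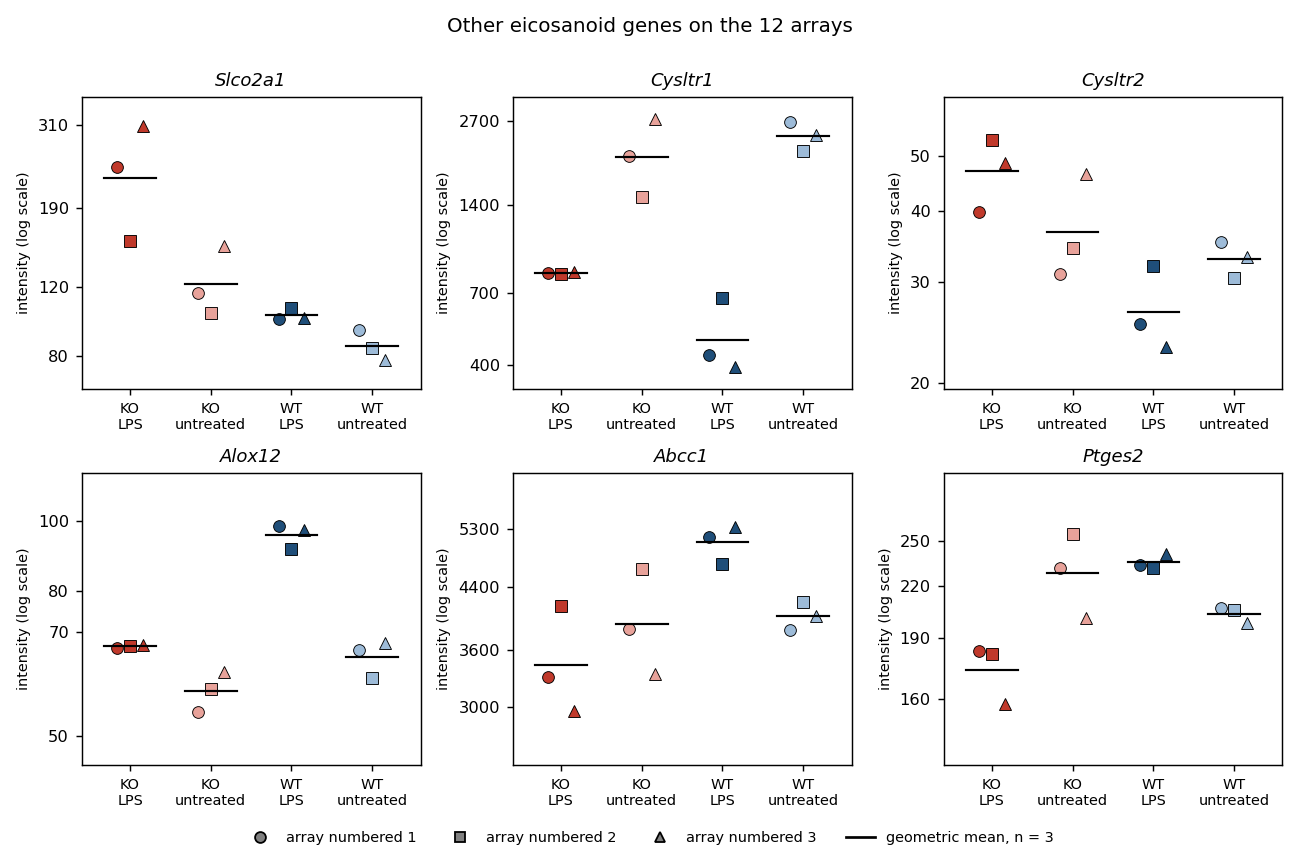
Probe-set intensity (vertical axes, log scale) of 6 other eicosanoid genes on the 12 arrays, in the groups knockout (KO) with LPS, knockout untreated, wild type (WT) with LPS and wild type untreated. Points are single arrays, with a shape for each replicate number, and bars are geometric means with n = 3. With LPS, Slco2a1, Cysltr1 and Cysltr2 are higher and Alox12, Abcc1 and Ptges2 lower on every knockout array than on any wild-type array.

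Across the 12 arrays, the genes whose log2 intensity ran most alike with Ptgs2 were Slc7a2 (Pearson r = 0.994), Pim1 (0.989) and Sdc4 (0.989), an amino-acid transporter, a kinase and a cell-surface proteoglycan gene. With Ptges they were Marcksl1 (0.993), Tpbpa (0.992) and Tnip1 (0.988), the last a feedback regulator of NF-κB. Untreated, the genes nearest Ptgs2 were lower in knockout than in wild-type cells, none of them called. Their differences were -0.76 for Sdc4, -0.68 for Pim1 and -0.34 for Slc7a2. Those nearest Ptges differed by 0.003 for Tnip1 to 0.05 for Tpbpa. All of these genes were called higher with LPS in both genotypes, and the part of LPS in these correlations was not tested. Pim1, for example, rose by 1.99 in knockout (limma adjusted p = 6.67e-06) and by 1.23 in wild-type cells (limma adjusted p = 3.40e-04), and Tnip1 rose by 1.94 and 1.92 (limma adjusted p = 1.94e-06 and 3.19e-06).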

How the data were processed

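The deposited values are linear intensities, 1 per probe set, which the authors obtained with RMA (Affymetrix Expression Console 1.1, as the submitters' processing notes list it). Its settings are not known here. RMA usually gives all arrays similar distributions, which would hide a shift of most transcripts. Log2 was taken with no pseudocount. Of 35556 probe sets 21789 had 1 gene symbol in the platform annotation, 1621 several and 12146 none, and the brightest probe set was kept for 999 genes with several. Array medians were 110.4 to 118.7 and correlations within groups 0.982 to 0.996. The number of arrays limits the precision.

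The tests were two-sided and used limma 3.58.1 under R 4.3.3 (lmFit, then eBayes; 4 group means, 8 residual degrees of freedom, 5 contrasts), adjusted by Benjamini-Hochberg over 19938 genes, and checked on simulated data. The text names all members, Nfkbiz, in each contrast up to 4 called genes of the other eicosanoid lists by size of difference, and the 3 genes most like Ptgs2 and Ptges, predicted genes passed over. Members and lists were chosen with earlier results of these data known. The main fit had no pairing, and a replicate block was used only in alternatives. Same-numbered knockout arrays deviated together between treatments (r = 0.322, 0.568 and 0.459). Same-numbered wild-type arrays did not all do so (-0.07, 0.143 and 0.359), nor did arrays of the 2 genotypes. Alternatives were other scalings, an offset, leaving out the dimmest 25% of genes, robust variances with a trend, weighted arrays, a replicate block, the lowest probe set, only the arrays compared, a stricter threshold, and each array left out. Chosen after seeing the data were the block within knockout arrays and leaving out both knockout arrays numbered 2.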

Additional observations from a re-analysis of the deposited data

Results flagged for a closer look

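For 3 genes every knockout array moved one way with LPS, relative to the untreated mean of its genotype, and every wild-type array the other way. The search covered only the measured members and the named other eicosanoid genes, and how many of all genes do so was not counted. Ptges2 and Cysltr2 were named for a call between genotypes with LPS, so their opposite shifts partly follow from that choice. For Ptger2 the shifts were -0.59 to -0.07 on knockout and 0.68 to 1.09 on wild-type arrays, with a difference of responses of -1.26 (limma adjusted p = 0.0604). For Ptges2 they were -0.53 to -0.32 on knockout and 0.18 to 0.24 on wild-type arrays, with a difference of responses of -0.60 (limma adjusted p = 0.0659). For Cysltr2 they were 0.12 to 0.54 on knockout and -0.51 to -0.04 on wild-type arrays, with a difference of responses of 0.66 (limma adjusted p = 0.239). None of the 3 passed the threshold over all genes in the fit to all 12 arrays. The Ptges2 difference of responses was called with array weights (-0.59, adjusted p = 0.0139) and without untreated knockout array 3 (-0.69, adjusted p = 0.0326), and those that called Ptger2 stand with its results.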

How the results depend on the processing

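Over 5 comparisons and all alternatives, 1006 of 1080 member differences kept their direction and their side of the threshold, 16 lost and 10 gained a call, and 48 changed sign. The largest of those 48 was 0.34 in size, and none was called. The LPS calls of Ptgs2, Ptges, Tbxas1, Alox5, Alox5ap and Ptger4 and the Ptger2 call between genotypes with LPS held in every fit that left out 1 array. Leaving out 1 array gave 7 to 9 members called for LPS in each genotype, 1 to 2 between genotypes with LPS, 0 to 1 untreated and 0 to 1 for the difference of responses. With the replicate block, members called numbered 8 for LPS in knockout and 9 in wild-type cells, 1 between genotypes with LPS, and 0 in both other comparisons, and the block within knockout arrays also gave 8; it changed no member's call. Among the other named genes that block ended the Alox12 call for LPS in knockout cells (adjusted p = 0.0928) and made one for Cysltr2 (0.35, adjusted p = 0.0450). Without both knockout arrays numbered 2, 1 member (Ptgs2) was called in untreated cells. For the difference of responses, 1 member (Ptger2) was called after quantile normalization (-1.30, adjusted p = 0.0447) and with array weights (-1.15, adjusted p = 0.0130); the cause was not tested. Pla2g4a lost its LPS call in knockout cells when only those arrays were fitted (adjusted p = 0.0711).

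Signs changed as follows. Between genotypes with LPS, scaling on the 75th percentile gave 0.0036 for Ptgs2 and 0.0244 for Alox5ap, and array weights gave 0.0435 for Ptgis, -0.0294 for Tbxas1, 0.0574 for Alox5 and 0.0049 for Ptger4. Untreated, Tbxas1 was 0.0081 after quantile normalization and 0.0236 after median centring, and Ptger2 was -0.0676 without both knockout arrays numbered 2. For the difference of responses, the 75th percentile gave 0.0406 for Ptges and 0.0615 for Ptgis, array weights gave 0.22 for Ptgis, -0.0977 for Pla2g4a and 0.0373 for Ptger4, and leaving out both knockout arrays numbered 2 gave -0.22 for Pla2g4a. Abcc1 was 0.0886 for LPS in knockout cells on the 75th percentile. With 1 array left out, differences between genotypes with LPS ran from -0.0256 to 0.0677 for Ptges, -0.11 to 0.22 for Tbxas1 and -0.16 to 0.072 for Alox5. Untreated they ran from -0.0718 to 0.18 for Ptges, -0.41 to 0.0928 for Ptgis, -0.11 to 0.0673 for Tbxas1, -0.0676 to 0.33 for Ptger2 and -0.20 to 0.0456 for Ptger4. Differences of responses ran from -0.17 to 0.0836 for Ptges, -0.33 to 0.21 for Ptgis, -0.0971 to 0.23 for Tbxas1, -0.34 to 0.29 for Pla2g4a and -0.22 to 0.0709 for Ptger4.

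Counts over all genes moved more. For LPS in knockout cells 9105 genes were called, against 14970 on the 75th percentile and 5936 at adjusted p under 0.01. In wild-type cells it was 5594, against 11158 on the 75th percentile, 10113 with array weights and 3673 at the stricter threshold. Between genotypes with LPS it was 1623, against 3296 with array weights, 492 with only the arrays compared and 552 at the stricter threshold. Untreated it was 15, against 2 with only the arrays compared and 81 without both knockout arrays numbered 2, and for the difference of responses 149, against 667 with array weights. Of the 45 other eicosanoid genes, 10 were called for LPS in wild-type cells, against 26 on the 75th percentile, 23 with array weights and 17 with only the arrays compared, and 24 in knockout cells, against 15 at the stricter threshold.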

Other observations

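Of the other eicosanoid genes, Dpep2, which encodes an enzyme that trims leukotriene D4, had 2 probe sets that disagreed in size. The brighter one differed with LPS by -0.50 in knockout (limma adjusted p = 0.0699) and -0.63 in wild-type cells (limma adjusted p = 0.0391), and the other by -2.39 (limma adjusted p = 5.70e-04) and -2.10 (limma adjusted p = 0.0021). The 3 probe sets of Ptges3, a cytosolic prostaglandin E synthase and co-chaperone gene, ranged from 0.12 to 0.17 in knockout and from 0.21 to 0.39 in wild-type cells, none of them called.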
